A study of Mus musculus with 4 samples.

Results

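Interferon signalling was examined through 47 genes in MC38 cells, a mouse colon carcinoma line, that carried either a non-targeting guide RNA or a guide against Cbfb. The genes were chosen by name and role, and the rule itself uses no measured value: receptor chains, Janus kinases (JAKs), STAT and IRF transcription factors, feedback inhibitors, nucleic acid sensors and interferon-stimulated genes. All 47 were listed among the 26322 genes of the deposited table. The WT libraries (n = 2) came from cells electroporated with Cas9 and a non-targeting guide. The CbfbKO libraries (n = 2) came from cells given Cas9 with 1 guide against Cbfb, so that both groups had received Cas9 and had been electroporated. The edited cells were a pool and not a clone, and RNA was taken a week or more after editing. The labels name no added cytokine. A further replicate of each group had been set aside for poor RNA.

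Interferons are secreted proteins that cells release when they sense viral or misplaced nucleic acid, and interferon gamma is also released by T cells that attack tumours. Alpha and beta interferons bind the receptor chains IFNAR1 and IFNAR2, and interferon gamma binds IFNGR1 and IFNGR2. Bound receptors switch on JAK kinases, which phosphorylate STAT factors. STAT and IRF factors then bind short DNA elements, the interferon-stimulated response element and the gamma-activated site, and switch on genes whose products block virus entry, degrade or edit RNA, tag proteins or attack intracellular parasites. Even without added interferon, many of these genes are expressed at a low level in cultured cells. CBFβ, the product of Cbfb, is the partner of the RUNX transcription factors and strengthens their binding to DNA.

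Values were deposited as log2 CPM, the log2 of a gene's reads scaled to a common library total (CPM) after a small prior count, so that a gene with no read sits at -0.79 and not at minus infinity. Whole reads could be read back from these values, giving 3189035 to 3907936 reads per library, and 1 read was worth 0.256 to 0.314 CPM. The libraries were made from the 3′ ends of mRNA, where a transcript gives about the same number of reads whatever its length, so CPM levels could be set side by side between genes. The edited gene itself gave 295 and 285 reads in the WT libraries and 125 in each CbfbKO library (log2 fold change -1.27, SE 0.12, adjusted p = 1.76e-07). Reads of 20 leukocyte marker genes summed to 9 and 1 in WT and 11 and 5 in CbfbKO, with 14 of the genes at 0 in every library, Cd3e and Lyz2 among them. The highest of them were Cd68, with 3 and 0 reads in WT and 6 and 2 in CbfbKO, and Coro1a, with 1 read in each WT library and 3 in each CbfbKO library. Markers of epithelium were near 0 in spite of the carcinoma label: Epcam, which encodes an epithelial adhesion protein, had 0 and 1 reads in WT and 1 and 0 in CbfbKO, and 10 such genes together had 6 to 9 reads per library. The highest were the keratin genes Krt8, with 2 and 4 reads in WT and 1 and 3 in CbfbKO, and Krt20, with 0 reads in WT and 3 and 2 in CbfbKO. Of 8 fibroblast genes, Lum and Thy1 had 0 reads in every library. The collagen gene Col1a2 had 2 and 1 reads in WT and 0 and 1 in CbfbKO. Col1a1, also a collagen gene, had 8 and 9 in WT and 13 and 12 in CbfbKO. The collagen gene Col3a1 fell from 386 and 354 reads to 217 and 197 (log2 fold change -0.90, adjusted p = 2.46e-06). It was the only 1 of the 5 tested that passed, and 3 of the 5 had estimates above 0, among them the receptor gene Pdgfra with 121 and 91 reads in WT and 169 and 152 in CbfbKO (log2 fold change 0.53, adjusted p = 0.0515). The part of such genes in the results below was not tested.

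Most of the 47 listed genes were expressed, and few passed the test of a difference between the groups. The list was drawn up with earlier results of these data known, so its share of expressed genes does not stand for interferon genes in general. Of 70 further interferon-stimulated genes, 12 had no read in any library. Of the 47 genes, 30 had a mean above 10 CPM, 12 lay between 1 and 10 CPM, and 5 lay under 1 CPM. Of these, 43 passed the filter on low values (2 or more libraries with a log2 CPM not under 0) and were tested with limma across all 12207 such genes. Their median level was 4.13 on the log2 CPM scale, against 4.40 for all tested genes. The labels do not say whether replicates were separate cultures, so p-values measure only the spread between these samples. In bulk RNA, fewer cells expressing a gene and less RNA per cell cannot be told apart.

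**Figure D1:**
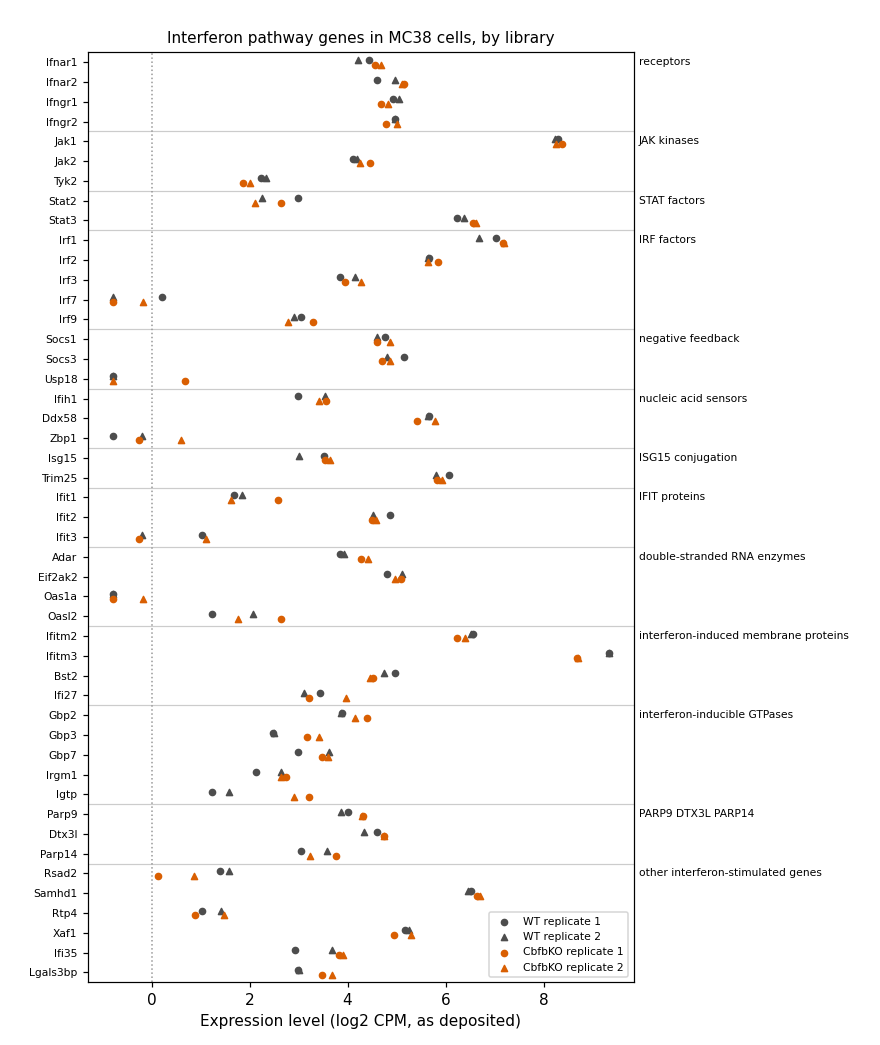
Expression level of each of the 47 genes in each library, on the deposited log2 CPM scale, with genes grouped by role (grey, WT; orange, CbfbKO; circle, replicate 1; triangle, replicate 2). Ifitm3 and Jak1 are the highest rows, and Irf7, Usp18, Zbp1 and Oas1a, with at most 4 reads in any library, lie closest to the floor of -0.79.

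After Benjamini-Hochberg adjustment over all tested genes, 1 gene was higher in CbfbKO, the GTPase gene Igtp, and 1 was lower, the membrane protein gene Ifitm3. That is 2.33% of the 43 in each direction, where the whole table had 1.57% higher and 1.25% lower, so the list stood close to the background. At an unadjusted p under 0.05 there were 12 genes, 27.9% against 14.9% of all genes, 8 with a higher and 4 with a lower mean in CbfbKO. Over all tested genes, 1181 had a higher and 639 a lower mean at that threshold. Both CbfbKO libraries lay above both WT libraries for 15 genes (34.9%, against 27.4% of all tested genes), and below them for 6 (14.0%, against 16.8%). The log2 fold change was positive for 28 genes (65.1%, against 57.0% of all tested genes) and negative for 15, with a median of 0.17 where all tested genes had a median of 0.039.

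Most differences were small and bounded. For 22 of the 43 genes the log2 fold change lay within 0.25 of 0, and only 4 genes had an estimate past 1.5-fold in either direction: Igtp, Gbp3, Rsad2 and, just inside this group, Ifitm3. The 95% confidence interval stayed between -1 and 1 for 34 genes, so that a doubling or a halving lay outside it, and between -0.5 and 0.5 for 10. Together the 47 genes took 1992 and 1949 CPM in WT and 1830 and 1858 CPM in CbfbKO. Without Ifitm3 the order turned round, with 1352 and 1307 CPM in WT and 1417 and 1444 CPM in CbfbKO. Ifitm3 alone gave 32.1% and 33.0% of the reads of the list in WT, and 22.5% and 22.3% in CbfbKO.

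**Figure D2:**
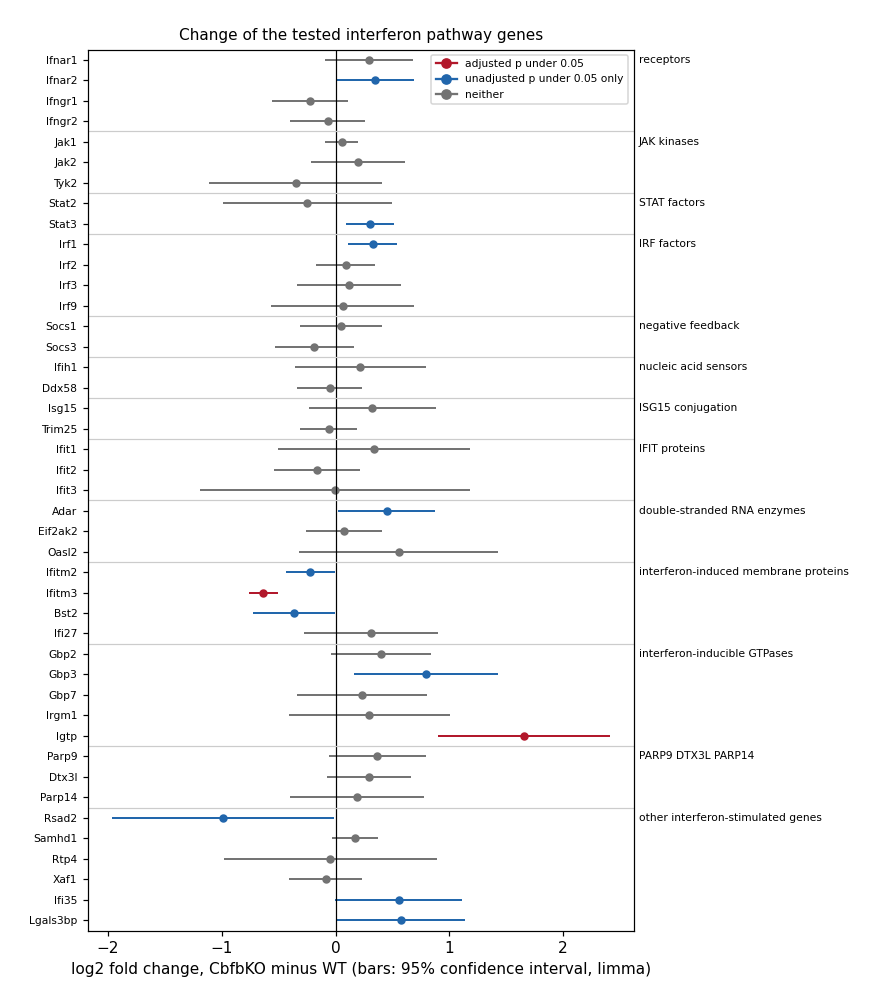
Log2 fold change of the 43 tested genes, CbfbKO minus WT, with 95% confidence intervals from limma, grouped by role (red, adjusted p under 0.05; blue, unadjusted p under 0.05 only; grey, neither). Ifitm3 lies at -0.63 and Igtp at 1.66, and the intervals of most other genes cross 0.

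The genes for the interferons themselves had almost no reads. Of 21 interferon ligand genes in the table, including Ifnb1, Ifng and the Ifna cluster, 20 had no read in any library. The remaining one, Ifnz, had 0 and 1 reads in WT and 3 and 0 in CbfbKO, and none could be tested. A count of 0 allows a level of up to 0.768 to 0.941 CPM, depending on the library, for counting error only.

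All 4 receptor chains were present at similar, moderate levels. Ifnar2, the chain that binds alpha and beta interferons most tightly and the highest of the 4 by the mean over all libraries, though not within WT, had 23.6 and 30.9 CPM in WT and 35.1 and 33.9 CPM in CbfbKO. The CbfbKO libraries lay above the WT libraries, but the difference did not pass adjustment (log2 fold change 0.35, SE 0.16, unadjusted p = 0.0419, adjusted p = 0.308). The estimate was 0.16 without WT replicate 1 and 0.54 without WT replicate 2. In the reference transcripts 17.1% of the 75-base windows near the ends of Ifnar2 also occur in Gm21970, so its reads may be shared. Its partner Ifnar1 had 72 and 60 reads in WT and 90 and 80 in CbfbKO, with no overlap between the groups on the CPM scale (log2 fold change 0.29, SE 0.18, adjusted p = 0.499). The interferon gamma receptor chains had estimates below 0. Ifngr1, the binding chain, was estimated at -0.23 (SE 0.16, adjusted p = 0.558), with 29.7 and 32.4 CPM in WT and 25.1 and 27.9 CPM in CbfbKO. Ifngr2, the signalling chain, was estimated at -0.07 (SE 0.16, adjusted p = 0.892), and its groups overlapped.

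Among the kinases, Jak1, which serves both kinds of receptor, was far more abundant than its partners. It had 312 and 300.1 CPM in WT and 330 and 306 CPM in CbfbKO, and the groups overlapped (log2 fold change 0.05, 95% confidence interval -0.09 to 0.19). Jak1 alone gave at least 15.4% of the reads of the list in each library. Jak2, the partner of Jak1 at the interferon gamma receptor, had 57 and 59 reads in WT and 83 and 59 in CbfbKO (log2 fold change 0.20, SE 0.20, adjusted p = 0.714). Tyk2, which works with IFNAR1, had 14 and 15 reads in WT and 12 and 11 in CbfbKO (log2 fold change -0.35, SE 0.36, adjusted p = 0.727). With so few reads the interval for Tyk2 ran from -1.10 to 0.40 and held both no difference and a halving.

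Stat3, which carries signals of interleukin 6 and other cytokines as well as interferons, was the higher of the STAT genes listed. It had 74.2 and 82.2 CPM in WT and 94.2 and 98.5 CPM in CbfbKO, and the groups did not overlap. The log2 fold change was 0.30 (SE 0.10, unadjusted p = 0.00564), and the adjusted p was 0.114. Stat2, the STAT that pairs with IRF9, had 25 and 14 reads in WT and 22 and 12 in CbfbKO, with both groups spread over about the same range (log2 fold change -0.25, SE 0.36).

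Irf1, a transcription factor that interferon gamma induces and that drives antigen presentation and chemokine genes, came closest to the threshold without passing it. Its levels were 130 and 102 CPM in WT and 143 and 146 CPM in CbfbKO. The CbfbKO libraries lay above both WT libraries, and the WT libraries differed from each other more than the CbfbKO libraries did. The log2 fold change was 0.33 (SE 0.10, unadjusted p = 0.00296, adjusted p = 0.0774). Leaving out WT replicate 1 brought it to 0.50 and leaving out WT replicate 2 to 0.15, so that the estimate depended on which WT library was kept. Among the alternative analyses, Irf1 passed with a minimum of 5 CPM (adjusted p = 0.0145), voom on library totals (0.0378) and the replicate block (0.0144). Irf1 lies on chromosome 11 at 53770014 to 53778374 on the plus strand. The reference holds 2 start windows for it, and the upstream one (RefSeq sequence of GRCm38.p6, chr11:53769764-53770063, plus strand, 250 bases before to 50 after the start) is shown because it carries the gamma-activated site motif, TTCNNNGAA, in capitals, 90 bases before the start.
Irf1: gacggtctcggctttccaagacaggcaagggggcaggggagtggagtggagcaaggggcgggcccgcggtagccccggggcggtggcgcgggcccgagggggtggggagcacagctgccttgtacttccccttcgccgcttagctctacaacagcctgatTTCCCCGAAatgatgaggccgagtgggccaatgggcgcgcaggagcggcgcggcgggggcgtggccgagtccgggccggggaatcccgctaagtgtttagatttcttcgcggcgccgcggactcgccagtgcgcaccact

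The other IRF genes gave estimates within 0.12 of 0. Irf2, a repressor at many IRF1 sites, had 50.4 and 49.5 CPM in WT and 57.1 and 49.5 CPM in CbfbKO. Irf3, which induces interferon beta once nucleic acid has been sensed, had an estimate of 0.12 (SE 0.22). Irf9, the DNA-binding partner of STAT2, had an estimate of 0.06 (SE 0.30). Irf7, which amplifies alpha interferon production and is itself strongly interferon-induced, had 2 and 0 reads in WT and 0 and 1 in CbfbKO and was not tested.

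The feedback inhibitors showed no difference beyond the spread. Socs3, which blocks JAK kinases at cytokine receptors, had 34.7 and 27.3 CPM in WT and 25.6 and 28.5 CPM in CbfbKO (log2 fold change -0.18, 95% confidence interval -0.52 to 0.15). Socs1, the stronger brake on interferon gamma signalling, had 90 and 79 reads in WT and 92 and 91 in CbfbKO (log2 fold change 0.05, 95% confidence interval -0.31 to 0.40). Usp18, which removes ISG15 from proteins and shuts off IFNAR2, had 4 reads in CbfbKO replicate 1 and none in the other 3 libraries. It was not tested.

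The cytoplasmic RNA sensors did not differ beyond the spread between libraries. Ddx58, which encodes RIG-I, had 50.1 and 49.2 CPM in WT and 42.0 and 54.6 CPM in CbfbKO, where the CbfbKO libraries lay on either side of the WT libraries (log2 fold change -0.05, 95% confidence interval -0.33 to 0.22). Ifih1, which encodes the long RNA sensor MDA5, had 25 and 37 reads in WT and 44 and 32 in CbfbKO (log2 fold change 0.22, SE 0.27). Zbp1, a sensor of left-handed nucleic acid that can start necroptosis, had 0 and 1 reads in WT and 1 and 3 in CbfbKO and was not tested. Other genes that lead from sensing to interferon were looked at as a list of 12, of which 10 were in the table under their listed or older symbols. All 10 were tested and none passed (limma, 0 of 10 at an unadjusted p under 0.05, against 14.9% of all tested genes), with 5 estimates above and 5 below 0. The highest were Mb21d1, which encodes the DNA sensor cGAS, with 154 and 162 reads in WT and 212 and 144 in CbfbKO, and Traf3, an adaptor upstream of IRF3, with 110 and 123 in WT and 156 and 138 in CbfbKO.

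Isg15, a ubiquitin-like protein that interferons induce strongly, had 37 and 25 reads in WT and 43 and 38 in CbfbKO. The CbfbKO libraries lay just above the WT libraries (log2 fold change 0.32, SE 0.27, adjusted p = 0.638). Trim25, a ligase for ISG15 and an activator of RIG-I, had 66.3 and 55.5 CPM in WT and 56.3 and 59.9 CPM in CbfbKO (log2 fold change -0.06, SE 0.12). The IFIT genes, whose products bind foreign RNA, overlapped between the groups without exception. Ifit2 had 28.6 and 22.5 CPM in WT and 22.0 and 23.2 CPM in CbfbKO (log2 fold change -0.16, SE 0.18), Ifit1 had 8 to 21 reads per library, and Ifit3 had 5 and 1 reads in WT and 1 and 5 in CbfbKO. Of the windows near the ends of Ifit3 transcripts, 9.86% also occur in Ifit3b.

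Enzymes that act on double-stranded RNA had estimates above 0. Adar, which edits adenosines in double-stranded RNA, had 13.8 and 14.7 CPM in WT and 18.7 and 20.7 CPM in CbfbKO, with no overlap (log2 fold change 0.45, SE 0.20, unadjusted p = 0.0382, adjusted p = 0.296). Eif2ak2, which encodes the translation-blocking kinase PKR, had 27.4 and 33.9 CPM in WT and 33.5 and 30.7 CPM in CbfbKO, and the groups overlapped (log2 fold change 0.07, SE 0.16). Oasl2, a relative of the oligoadenylate synthetases, had 6 and 12 reads in WT and 22 and 9 in CbfbKO (log2 fold change 0.55, SE 0.42). Oas1a, a synthetase that activates RNase L, had a single read, in CbfbKO replicate 2, and was not tested. Its transcript ends share 46.0% of their windows with Oas1g.

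Ifitm3 fell in CbfbKO, and it was the most abundant gene of the list. It encodes a small membrane protein that traps incoming viruses in endosomes, and it lies on chromosome 7 at 141009586 to 141010770 on the minus strand. It had 2174 and 2143 reads in WT and 1611 and 1320 in CbfbKO, which is 640.1 and 643 CPM against 412 and 414 CPM. Within each group the libraries were nearly equal, and the groups were far apart. The log2 fold change was -0.63 (SE 0.058, adjusted p = 9.11e-08), so that CbfbKO stood at 64.4% of WT. The estimate lay between -0.69 and -0.63 in the 18 alternative analyses and the call held in 14 of them. It was lost without a filter on low values (adjusted p = 0.106), without the mean-variance trend (0.180), and, with the tested genes kept, without CbfbKO replicate 1 (0.267) or CbfbKO replicate 2 (0.229).

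The start window of Ifitm3 is shown because it holds both interferon motifs close to the start. The sequence is from RefSeq, GRCm38.p6, chr7:141010695-141010994, given along the minus strand. Capitals mark the core of the interferon-stimulated response element, GAAANNGAA, which begins 2 and 19 bases after the start. They also mark the gamma-activated site motif, TTCNNNGAA, which begins 13 bases after the start and runs into the second core. For comparison, the window of Ifitm1 (chr7:140967826-140968125, plus strand), the neighbouring gene described next, holds neither of these motifs nor TGTGGT, a RUNX motif, on either strand.
Ifitm3: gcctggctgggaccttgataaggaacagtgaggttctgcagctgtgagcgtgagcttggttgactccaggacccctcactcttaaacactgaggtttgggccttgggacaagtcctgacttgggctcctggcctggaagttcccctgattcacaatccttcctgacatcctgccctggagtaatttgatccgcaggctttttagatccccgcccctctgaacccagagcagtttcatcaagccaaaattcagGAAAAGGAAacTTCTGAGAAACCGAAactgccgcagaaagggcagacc
Ifitm1: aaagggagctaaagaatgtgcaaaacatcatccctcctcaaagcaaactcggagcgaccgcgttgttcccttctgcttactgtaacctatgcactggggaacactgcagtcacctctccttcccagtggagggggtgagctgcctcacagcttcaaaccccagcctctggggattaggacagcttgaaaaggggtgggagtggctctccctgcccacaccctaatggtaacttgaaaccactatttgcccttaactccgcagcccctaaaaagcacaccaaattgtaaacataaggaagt

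Ifitm1 was the only called gene in a list of 70 further interferon-stimulated genes that are not among the 47, with a lower level in CbfbKO. Its product resembles that of Ifitm3 and acts mainly at the cell surface. It passed the filter on low values through the WT libraries, where it was high. It had 20 and 14 reads in WT and 2 and 0 in CbfbKO, with no overlap (log2 fold change -2.81, SE 0.47, adjusted p = 5.73e-04). Pooled over libraries, CbfbKO stood at 5.58% of WT, with an exact interval of 0.649% to 21.8% for counting error only. The fitted fold change depends on the prior count and was -4.05 with a prior of 0.5. The call held in 11 of 17 alternatives, and of those that leave out a library and keep the tested genes, it was lost without WT replicate 1 (adjusted p = 0.0520), CbfbKO replicate 1 (0.326) and CbfbKO replicate 2 (0.45). Without a low-value filter, with quantile normalization and without the trend it was lost as well.

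Of the other IFITM genes, Ifitm2 and Ifitm5 were tested and did not pass, and Ifitm6, Ifitm7 and Ifitm10 had too few reads for the test. The cluster from Ifitm2 to Ifitm3 spans 55934 bases of chromosome 7. Ifitm2, a close relative that acts in endosomes, had 94.2 and 90.6 CPM in WT and 74.7 and 83.7 CPM in CbfbKO, and both CbfbKO libraries lay below both WT libraries. The difference did not pass adjustment (log2 fold change -0.22, SE 0.10, unadjusted p = 0.0354, adjusted p = 0.285), the estimate was -0.14 without CbfbKO replicate 1, and 32.6% of the windows at its transcript end also occur in predicted genes such as Gm8865, so its reads are uncertain. Only 0.939% of the windows of Ifitm3 and 1.41% of those of Ifitm1 are shared with another gene. Ifitm5 had 3 and 1 reads in WT and 4 and 0 in CbfbKO, Ifitm6 had 1 read in all, and Ifitm7 and Ifitm10 had none. These last 4 genes were added after their values were seen.

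The other membrane protein genes of the list lie elsewhere in the genome. Bst2, which encodes tetherin and holds budding virus at the cell surface, had 30.6 and 26.1 CPM in WT and 22.3 and 21.3 CPM in CbfbKO. Its groups did not overlap, and the difference did not pass adjustment (log2 fold change -0.37, SE 0.17, unadjusted p = 0.0417, adjusted p = 0.307). Ifi27, a mitochondrial and nuclear membrane protein gene, had 10.3 and 8.10 CPM in WT and 8.70 and 15.1 CPM in CbfbKO, with overlap (log2 fold change 0.31, SE 0.28). Of the 4 membrane protein genes in the list, 1 was called lower and a further 2 had an unadjusted p under 0.05 with a lower mean. The remaining 1 had a higher mean. Of all tested genes, 1.25% were called lower and 14.9% had an unadjusted p under 0.05.

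**Figure D3:**
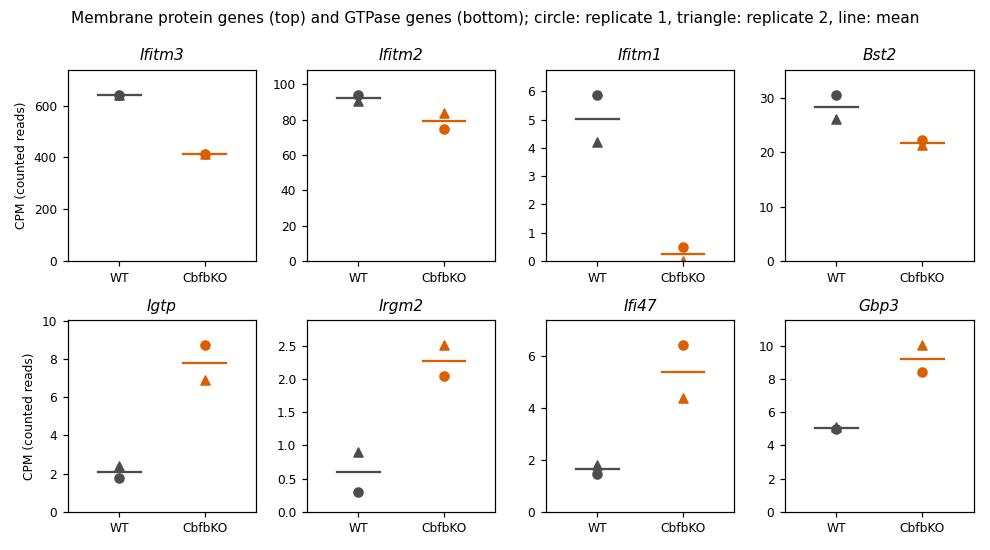
CPM of counted reads in each library for membrane protein genes (top row) and GTPase genes (bottom row), each panel with its own axis from 0 (grey, WT; orange, CbfbKO; circle, replicate 1; triangle, replicate 2; line, group mean). Ifitm3 lies at 640.1 and 643 CPM in the WT libraries and at 412 and 414 CPM in the CbfbKO libraries, and Igtp lies at 1.77 and 2.40 CPM in WT and 8.70 and 6.90 CPM in CbfbKO.

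Igtp was the only gene of the 47 called higher in CbfbKO. It encodes IRGM3, an immunity-related GTPase that acts on the vacuoles of intracellular parasites, and it lies on chromosome 11 at 58199556 to 58207591 on the plus strand. It had 6 and 8 reads in WT and 34 and 22 in CbfbKO, which is 1.77 and 2.40 CPM against 8.70 and 6.90 CPM. The CbfbKO libraries lay well above the WT libraries, though all 4 values are low. The log2 fold change was 1.66 (SE 0.36, adjusted p = 0.00801), a 3.15-fold higher level on the deposited scale, and pooled reads gave 379% of WT with an exact interval of 208% to 738% for counting error only. The estimate stayed between 1.48 and 1.86 in the 18 alternatives, and the call held in 10. It was lost without CbfbKO replicate 1 (adjusted p = 0.184) or CbfbKO replicate 2 (0.0786), with quantile normalization (0.0998), without the trend (0.116), without a low-value filter (0.625) and, with the tested genes kept, without WT replicate 1 (0.0790), CbfbKO replicate 1 (0.551) or CbfbKO replicate 2 (0.511).

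The start window of Igtp (RefSeq, GRCm38.p6, chr11:58199306-58199605, plus strand) is shown with that of Gbp3 (chr3:142559794-142560093, plus strand, the first of its 2 windows) because both hold the response element core just before the start. In Igtp the core GAAANNGAA begins 34 bases and the gamma-activated site motif TTCNNNGAA 45 bases before the start. In Gbp3 the core occurs on the opposite strand, from 44 and from 38 bases before the start, and the 2 matches overlap. Capitals mark these matches.
Igtp: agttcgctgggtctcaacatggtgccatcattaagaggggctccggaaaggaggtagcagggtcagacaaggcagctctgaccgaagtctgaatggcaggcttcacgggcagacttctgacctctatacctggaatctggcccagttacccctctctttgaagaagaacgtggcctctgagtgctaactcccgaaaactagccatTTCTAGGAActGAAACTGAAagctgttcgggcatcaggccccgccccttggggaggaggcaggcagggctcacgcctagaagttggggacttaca
Gbp3: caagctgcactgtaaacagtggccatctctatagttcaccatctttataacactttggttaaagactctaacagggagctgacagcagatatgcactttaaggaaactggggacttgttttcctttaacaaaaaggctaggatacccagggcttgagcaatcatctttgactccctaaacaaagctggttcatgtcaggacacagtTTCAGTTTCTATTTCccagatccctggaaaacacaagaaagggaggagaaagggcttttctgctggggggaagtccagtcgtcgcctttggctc

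All 5 interferon-inducible GTPase genes of the list had estimates above 0, with a median log2 fold change of 0.40, and 1 of them, Igtp, passed the test, where 57.0% of all tested genes were above 0 and 1.57% were called higher. Gbp3, a guanylate-binding protein that coats pathogen vacuoles, had 17 reads in each WT library and 33 and 32 in CbfbKO. The groups did not overlap, and the difference did not pass adjustment (log2 fold change 0.80, SE 0.30, unadjusted p = 0.0142, adjusted p = 0.182). Gbp2, the most abundant of the 5, had 14.1 CPM in both WT libraries and 20.5 and 17.2 CPM in CbfbKO, also without overlap, as was so for 27.4% of all tested genes (log2 fold change 0.40, SE 0.21, adjusted p = 0.384). Gbp7 and Irgm1, a regulator of the other immunity-related GTPases, overlapped between the groups, with estimates of 0.23 (SE 0.27) and 0.30 (SE 0.34). Gbp7, Gbp3 and Gbp2 lie together within 107667 bases of chromosome 3.

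The immunity-related GTPase relatives of Igtp outside the 47 were few and low. Irgm2, which overlaps Igtp and starts 62 bases after it on the same strand, had 1 and 3 reads in WT and 8 in each CbfbKO library (log2 fold change 1.33, SE 0.48, unadjusted p = 0.0112, adjusted p = 0.164). Irgm2 passed the filter on low values through the CbfbKO libraries, where it was high, so its p-values give no separate support. No 75-base window near the transcript ends is shared between Irgm2 and Igtp, but reads from where they overlap cannot be assigned with certainty. Ifi47, on the same chromosome, had 5 and 6 reads in WT and 25 and 14 in CbfbKO and missed the threshold (log2 fold change 1.41, SE 0.39, adjusted p = 0.0513). Irgm2 and Ifi47 had no overlap between the groups, as was so upwards for 27.4% of all tested genes. Both were named after their values were seen. Iigp1 had 0 reads in WT and 2 and 1 in CbfbKO, and Tgtp1 and Tgtp2 had none. Gbp2b, a guanylate-binding protein gene and so not of this family, had none either.

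The genes Parp9, Dtx3l and Parp14, which encode an ADP-ribosylating complex and its relative, had estimates from 0.19 to 0.37. Parp9 had 15.6 and 14.1 CPM in WT and 19.4 and 19.1 CPM in CbfbKO, and Dtx3l, the ubiquitin ligase that pairs with PARP9, had 23.6 and 19.5 CPM in WT and 26.4 and 26.3 CPM in CbfbKO. For both, the CbfbKO libraries lay above the WT libraries, as for 27.4% of all tested genes, and neither passed adjustment (adjusted p = 0.419 and 0.475). Parp14 had 26 and 38 reads in WT and 51 and 28 in CbfbKO, with overlap.

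Of the remaining 6 stimulated genes, 3 had an unadjusted p under 0.05, against 14.9% of all tested genes, and none passed adjustment. Lgals3bp, a secreted galectin-binding glycoprotein, had 25 reads in each WT library and 41 and 39 in CbfbKO (log2 fold change 0.57, SE 0.27, unadjusted p = 0.0435, adjusted p = 0.314). Ifi35, a partner of the interferon-induced protein NMI, had 24 and 41 reads in WT and 53 and 46 in CbfbKO (log2 fold change 0.55, SE 0.27, unadjusted p = 0.0487, adjusted p = 0.331). Rsad2, which encodes the antiviral enzyme viperin, went the other way, with 7 and 8 reads in WT and 2 and 4 in CbfbKO (log2 fold change -0.99, SE 0.47, unadjusted p = 0.0460, adjusted p = 0.322). The groups did not overlap for any of the 3, as was so for 27.4% of all tested genes upwards and 16.8% downwards. The Ifi35 estimate was 0.18 without WT replicate 1 and 0.93 without WT replicate 2, and that of Rsad2, which rests on a handful of reads, was -0.61 without CbfbKO replicate 1. Samhd1, which depletes the nucleotides that reverse transcription needs, was abundant, with 90.7 and 87.9 CPM in WT and 98.5 and 103 CPM in CbfbKO (log2 fold change 0.17, 95% confidence interval -0.02 to 0.37). Xaf1, an antagonist of an apoptosis inhibitor, and Rtp4, a receptor chaperone, had estimates of -0.09 (SE 0.15) and -0.05 (SE 0.45), with overlapping groups.

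**Figure D4:**
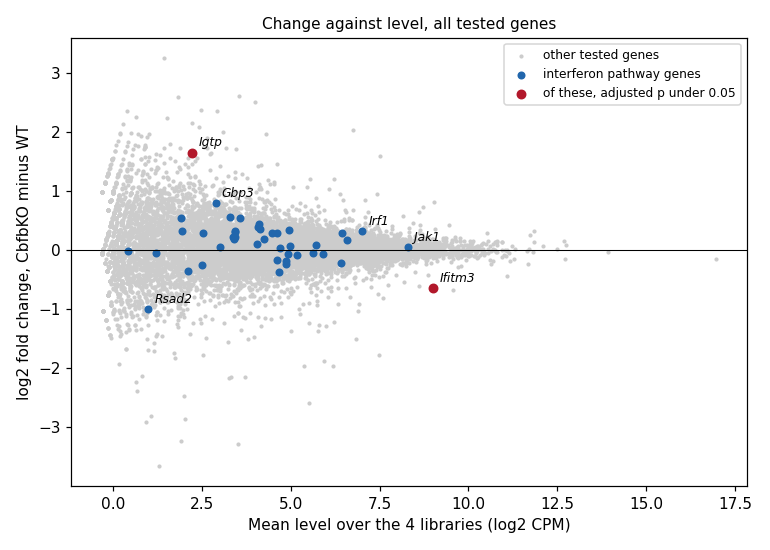
Log2 fold change against mean log2 CPM for all 12207 tested genes (light grey), with the 43 tested interferon genes in blue and those with an adjusted p under 0.05 in red. Ifitm3 lies at the high end of expression with a log2 fold change of -0.63, and Igtp at the low end with 1.66.

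Further lists of pathway genes were counted in the same way. Of 70 further interferon-stimulated genes, 12 had no read in any library, among them Oas2 and Mx2, and 44 were tested. Of these, 0 were higher (against 1.57% of all tested genes) and 1, Ifitm1, was lower (against 1.25%). At an unadjusted p under 0.05 there were 8 of the 44, 5 with a higher and 3 with a lower mean in CbfbKO, where the share over all genes was 14.9%. Over all tested genes, 1181 had a higher and 639 a lower mean at that threshold. The log2 fold change was positive for 29 of the 44 and negative for 15, with a median of 0.16. Of all tested genes, 57.0% were positive, with a median of 0.039. The 8 included Trim30a, with 8 and 14 reads in WT and 23 and 28 in CbfbKO (log2 fold change 1.05, adjusted p = 0.137), and Isg20, an exonuclease gene with 73 and 91 reads in WT and 58 and 53 in CbfbKO (log2 fold change -0.61, adjusted p = 0.105). Of 15 further genes of signalling and its control, 13 were tested and 0 passed in either direction, with 1 at an unadjusted p under 0.05: Irf2bpl, an IRF2-binding protein gene, with 306 and 338 reads in WT and 296 and 252 in CbfbKO (log2 fold change -0.30, adjusted p = 0.116). The highest of that list was Ptpn11, which encodes the phosphatase SHP2, with 543 and 503 reads in WT and 635 and 499 in CbfbKO.

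The start windows of the genes were searched for the motifs of the pathway on both strands, in 300 bases from 250 before to 50 after each start. RefSeq windows were found for 41 of the 47 genes, Ifi27 and Parp9 being among those with no entry. The response element core GAAANNGAA occurred in 21 of the 41 genes (51.2%), against 9.76% of all 27025 genes with a window. The gamma-activated site motif TTCNNNGAA occurred in 15 (36.6%, against 9.55%). The RUNX motif TGTGGT occurred in 5, Stat2, Adar, Oasl2, Gbp2 and Samhd1 (12.2%, against 18.9%), and in none of the windows of Ifitm3, Ifitm1 and Igtp. A match describes these letters in this window only and does not show binding.

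Genes with and without the response element core had estimates on both sides of 0. Among the 20 tested genes with the response element core, 12 had a log2 fold change above 0 and 8 below, with a median of 0.08, and they included both Igtp and Ifitm3. Among the 19 without it, 13 were above 0 and 6 below, with a median of 0.17. For the gamma-activated site motif the medians were 0.20 over 14 genes with it and 0.06 over 25 without, and for the RUNX motif 0.40 over 5 with it and 0.08 over 34 without. The receptors and kinases held no core, and all 5 GTPase genes and all 3 membrane protein genes with a window did.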

How the data were processed

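Libraries were made by the authors from MC38 RNA with a 3′ mRNA kit, and their reads were trimmed with cutadapt 1.9, aligned with HISAT2 2.1.0 to mm10 (GRCm38) and counted per gene with featureCounts 2.0.1, per the labels. The annotation release and the handling of strand and of reads that match more than 1 gene are not given in the sources used here. The authors deposited log2 CPM, scaled to library totals. The values fit a prior of 2 reads, adjusted for library size, and with it 100% of values came back within 0.1 of a whole read. Depth was 3396192 and 3335116 reads in WT and 3907936 and 3189035 in CbfbKO, of which the ribosomal RNA gene Rn45s took 11.3% to 13.9%. Replicates differed by more than sampling noise (chi-square per degree of freedom of 1.58 in WT and 2.15 in CbfbKO over 9520 genes), so each counted as 1 sample.

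The members and lists were chosen with earlier results of these data known. The deposited log2 values were tested with limma 3.58.1 in R 4.3.3 (lmFit, then eBayes with a mean-variance trend), two-sided, with Benjamini-Hochberg adjustment over 12207 genes and a threshold of 0.05. An exact permutation test on 2 against 2 libraries has a smallest p of 0.333, so none was used. Given in every library were members called, those with an unadjusted p under 0.05 and the highest member of each role, and, of other lists, genes called or else the 2 highest; genes named beyond these were chosen after their values were seen. The test was checked on simulated libraries. Alternatives were no filter, 5 CPM as minimum, median centring, quantile normalization, ribosomal RNA left out of totals, no trend, a prior of 0.5, voom on recovered reads with 2 scalings, the replicate number as a block, and each library left out. Leaving out a library while keeping the tested genes was added after seeing the data. Gene positions are from GENCODE M21 (GRCm38) and start windows from RefSeq (GRCm38.p6). Shared windows are 75-base stretches of the last 500 bases of transcripts that also occur in another gene's. Figures were drawn with matplotlib 3.10.9.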

Additional observations from a re-analysis of the deposited data

How the results depend on the processing

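Of 18 alternatives, 4 were chosen after seeing the data. The 17 genes followed through them (Cbfb, the 12 members with an unadjusted p under 0.05, Ifitm1, Ifi47, Irgm2 and Col3a1) changed direction in none that gave a value, and other genes named were not followed. This was largely fixed beforehand. The groups overlapped for none of the 17, so leaving out 1 library could not reverse the direction. The filter, trend and block settings leave the estimate of a gene unchanged. For Rsad2, Ifitm1, Ifi47 and Irgm2 only 17 alternatives gave a value. The 1 member higher in CbfbKO, Igtp, became 0 with no low-value filter, with quantile normalization and with no mean-variance trend, and 2 with a minimum of 5 CPM, with voom on library totals and with the replicate block, where Irf1 was added. Ifi47 also passed with the replicate block (adjusted p = 0.0214) and in no other alternative. When 1 library was left out, the number higher ranged from 0 to 2, at 0 without either CbfbKO replicate and 2 without WT replicate 1. The 1 member lower, Ifitm3, became 0 with no low-value filter and with no mean-variance trend. It ranged from 0 to 1 with a library left out, and was 0 without either CbfbKO replicate where the tested genes were kept. In those fits no gene of 12207 passed, and 1104 and 1169 had an unadjusted p under 0.05. Cbfb itself was called in 14 of 18 alternatives.

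Over all genes, 192 were higher and 153 lower. The counts were 2 and 53 with no filter, 300 and 209 with a minimum of 5 CPM, 40 and 48 with quantile normalization, 0 and 0 with no trend (1461 at an unadjusted p under 0.05), 61 and 86 without CbfbKO replicate 1, 61 and 91 without CbfbKO replicate 2, 174 and 243 with median-scaled voom, 320 and 215 with the replicate block, and, with the tested genes kept, 115 and 86 without WT replicate 1 and 104 and 75 without WT replicate 2. Libraries with the same replicate number showed no common deviation (correlation -0.0042), so the numbers were not taken to pair samples. The cause of these shifts was not tested. At this depth 12 of the 47 genes lie between 1 and 10 CPM and 5 under 1 CPM, where a few reads set the estimate.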
